A study of Mus musculus with 4 samples.

Results

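The Hox genes encode homeodomain transcription factors that sit in 4 clusters, and all 39 protein-coding members (gene symbols Hoxa, Hoxb, Hoxc or Hoxd followed by a paralog number) were taken from the 32285 genes listed in the single-cell RNA-sequencing files. UMIs, the molecular tags that count single RNA molecules, were compared between lung and synovium and between TNF+ mice and their TNF- littermates. TNF+ mice belong to a TNF-Tg line (hTNFtg in the sample labels) that carries 1 copy of the human TNF gene, and their TNF- littermates lack it. All mice were 4-month-old C57BL/6 females. Lung and synovium of both genotypes gave 4 groups, each 1 library of viable sorted cells pooled from 3 to 5 mice for lung and from 5 to 10 mice for synovium, with lung digested in Collagenase A, elastase and dispase II and synovium in type II collagenase. With 1 library per group no difference could be tested. The 95% intervals given with levels, shares and ratios cover counting error only, and some values are given without one. Tissue and digestion enzyme cannot be told apart, and the labels do not say which joints were taken.

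Hox proteins give cells a position along the body axes, and within a cluster the genes lie in the order in which they are used from head to tail. Low-numbered paralogs act anteriorly, high-numbered paralogs act posteriorly and, in the HoxA and HoxD clusters, in the distal limb, and fibroblasts of adult tissues are known to keep part of this pattern. Hox proteins bind DNA together with TALE cofactors of the Pbx and Meis families. In the annotation of the mm10 genome (GRCm38, GENCODE vM21), HoxA spanned chr6:52155590-52260880 on the minus strand, HoxB chr11:96194316-96368256, HoxC chr15:102921103-103036852 and HoxD chr2:74668310-74765142, all 3 on the plus strand. Introns were counted, and 11 of the 39 members overlap another gene on the same strand. Hoxa3, for example, runs across Hoxa4, Hoxa5 and Hoxa6, so reads from a shared stretch cannot be given to 1 gene.

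The proximal promoters of 4 members at the centre of the results are shown because these genes mark the contrast between the tissues: Hoxa5 and Hoxb4 were the leading HoxA and HoxB genes of TNF- lung fibroblasts, and Hoxa10 and Hoxc4 were almost unseen there. Each sequence is the 250 bases before a RefSeq start on GRCm38.p6, read 5′ to 3′ on the gene's own strand, with every CpG dinucleotide (CG, read on either strand alike) in capitals. Hoxa5 lies at chr6:52204588-52204837 (minus strand) and held 28 CpGs, a number that 7.61% of 32851 mouse promoters reached. Hoxb4 lies at chr11:96318017-96318266 (plus strand) with 14 CpGs, which 29.4% of promoters reached. Hoxa10 has 2 listed starts, and the one with more CpGs, at chr6:52234940-52235189 (minus strand), had 20, reached by 17.9%. Its other start, at chr6:52240855-52241104 and not shown, had 7, reached by 46.3%. Hoxc4 lies at chr15:103034145-103034394 (plus strand) and had 8, reached by 43.0%.
Hoxa5: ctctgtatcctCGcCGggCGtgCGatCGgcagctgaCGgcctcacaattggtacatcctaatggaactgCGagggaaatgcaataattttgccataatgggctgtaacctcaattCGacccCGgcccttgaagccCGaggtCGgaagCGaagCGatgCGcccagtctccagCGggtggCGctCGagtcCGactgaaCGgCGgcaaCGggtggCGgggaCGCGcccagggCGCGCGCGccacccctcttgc
Hoxb4: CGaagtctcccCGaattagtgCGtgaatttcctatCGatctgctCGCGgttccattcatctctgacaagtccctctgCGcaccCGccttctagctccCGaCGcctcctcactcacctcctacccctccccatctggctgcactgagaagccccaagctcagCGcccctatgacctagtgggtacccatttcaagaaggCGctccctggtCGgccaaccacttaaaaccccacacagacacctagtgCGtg
Hoxa10: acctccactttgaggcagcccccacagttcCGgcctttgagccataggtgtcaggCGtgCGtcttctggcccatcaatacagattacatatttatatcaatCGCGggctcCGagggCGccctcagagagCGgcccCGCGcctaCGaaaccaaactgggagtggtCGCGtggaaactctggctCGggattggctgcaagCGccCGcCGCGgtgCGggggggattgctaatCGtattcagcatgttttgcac
Hoxc4: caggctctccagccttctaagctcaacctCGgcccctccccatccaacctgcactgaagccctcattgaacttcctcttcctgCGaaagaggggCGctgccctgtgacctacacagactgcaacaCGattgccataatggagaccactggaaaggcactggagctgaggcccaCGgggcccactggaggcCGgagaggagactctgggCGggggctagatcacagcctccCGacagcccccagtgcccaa
The 24 promoters listed for 22 of the members had a median of 12.5 CpGs per 250 bases, against 6 over all promoters. These counts describe sequence. With the Hoxa10 start shown, they do not separate the lung and synovial members. With its other start (7 CpGs), Hoxa10 and Hoxc4 both lie below Hoxa5 and Hoxb4.

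The libraries held 4246 to 11243 cell barcodes and 48454234 to 155989523 UMIs, and 3152 to 9174 cells per library passed the filters of the study's methods with a median of 7137 to 12492 UMIs per cell. Pairs of libraries shared 5 to 21 barcodes, at most 0.304% of the smaller library. Cells were clustered within each tissue without the Hox genes, and clusters were called fibroblast-like, mural-like and so on (written below as fibroblasts, mural cells and so on) from marker lists. In lung (TNF- then TNF+) and then in synovium (TNF- then TNF+), fibroblasts numbered 461, 116, 2664 and 215, mural cells 106, 94, 292 and 125, and endothelial cells 2097, 392, 607 and 440. In every library fibroblasts had UMIs of 26 or 27 of their own 27 markers. Mural cells and endothelial cells each had UMIs of 21 of their own 21. TNF- lung fibroblasts also had UMIs of 21 of 21 endothelial, 18 of 18 B and plasma cell and 20 of 21 mural markers. Clusters were named from the same lists, so these counts do not test the names of the fibroblast, mural and endothelial classes. The TNF+ lung library stood apart for these classes, with median UMIs per cell of 986.5 in fibroblasts, 642 in mural cells and 774 in endothelial cells against 5794, 7120.5 and 6156 in TNF- lung, and in TNF+ synovium 17.6% of barcodes had over 20% mitochondrial UMIs.

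By level, Hox RNA was concentrated in the cells of the connective tissue and vessel wall, and immune and epithelial cells had little. In fibroblasts the summed level of the 39 members was 481 CPM (the members' UMIs divided by all UMIs of those cells, scaled to 1e6; interval 457 to 505) in TNF- lung, 307 (254 to 367) in TNF+ lung, 211 (206 to 215) in TNF- synovium and 141 (125 to 158) in TNF+ synovium. Mural cells, the pericytes and smooth muscle cells around vessels, had 421, 282, 276 and 180 CPM in the same order. Endothelial cells had 312, 140, 266 and 271 CPM. In TNF- mice lung fibroblasts and lung mural cells therefore held the highest summed levels, and endothelium differed least between the tissues. In TNF+ mice the intervals of lung mural cells (210 to 370) and synovial endothelium (255 to 287) overlapped.

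Lymphocytes, set beside the other classes as a low level measured in the same library, held 2.55 to 14.4 CPM of Hox RNA. TNF- lung lymphocytes had 157 UMIs of Hoxb4 and 21 of Hoxa5, where the whole library had 908 and 2435. How much of the lymphocyte value is free RNA was not tested. Epithelial cells of TNF- lung, TNF+ lung and TNF+ synovium had 3.96 (2.16 to 6.64), 3.05 (0.629 to 8.92) and 8.23 (4.80 to 13.2) CPM, below the lymphocytes of the library in lung and above them in TNF+ synovium. Among these epithelial cells Hoxa5 led in TNF- lung with 4 UMIs, and the 5 members found in TNF+ synovium were Hoxb2 and Hoxb3 with 6 UMIs each, Hoxb4 with 3 and Hoxb5 and Hoxb7 with 1 each. Schwann cells, the glia of peripheral nerve, reached 50 cells in synovium only, and had 79.2 (54.9 to 111) CPM in TNF- and 53.6 (40.2 to 70.2) CPM in TNF+ synovium. Their 34 and 53 Hox UMIs were spread over 11 and 17 members, with Hoxd8 at 7 and 8 UMIs, Hoxb3 at 4 and 5, Hoxb2 at 8 in TNF+ and Hoxc9 at 5 in TNF- synovium, too few to compare.

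**Figure D1:**
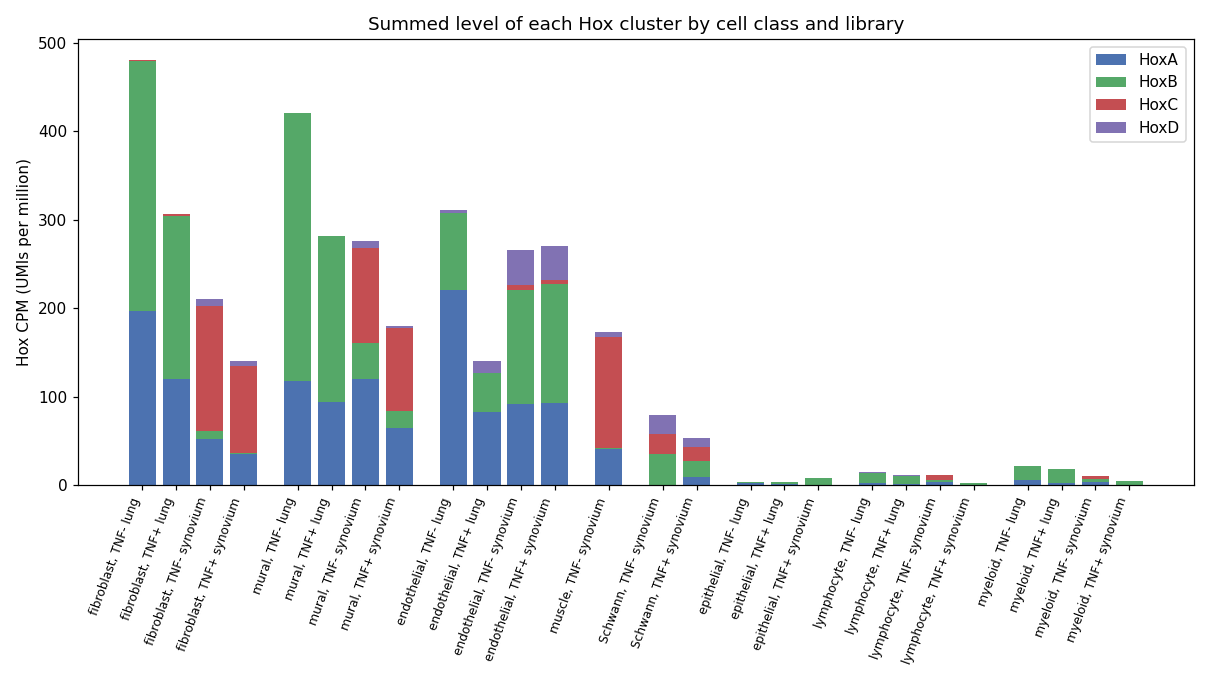
Summed level of the HoxA, HoxB, HoxC and HoxD clusters (CPM, stacked bars from 0) in each cell class of each library with at least 50 cells. HoxC makes up 142 of 211 CPM in TNF- synovial fibroblasts and 0.624 of 481 CPM in TNF- lung fibroblasts, while lymphocyte, myeloid and epithelial bars reach at most 21.8 CPM.

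Fibroblasts of the lung and the synovium used different parts of the Hox clusters. In TNF- lung fibroblasts HoxB gave 58.8% (interval 56.3 to 61.3) and HoxA 41.0% (38.5 to 43.5) of 1542 Hox UMIs, and HoxC and HoxD together gave 3 UMIs. In TNF- synovial fibroblasts HoxC gave 67.5% (66.4 to 68.5) of 8189 Hox UMIs, HoxA 24.9% (23.9 to 25.8), HoxB 3.90% (3.49 to 4.34) and HoxD 3.79% (3.38 to 4.22). The same clusters led in the TNF+ libraries, with HoxB at 72 of 120 UMIs (50.7 to 68.8%) in lung and HoxC at 191 of 273 UMIs (64.1 to 75.3%) in synovium.

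Sorted by paralog number, the lung fibroblasts stopped short of group 9. Groups 9 to 13 gave 0.130% (0.0157 to 0.468) of Hox UMIs in TNF- lung fibroblasts, which were 2 UMIs of Hoxa9, and 0 of 120 in TNF+ lung, where the interval reached 3.03%. In synovial fibroblasts these groups gave 50.1% (49.0 to 51.2) in TNF- and 54.2% (48.1 to 60.2) in TNF+ mice. Groups 1 to 4 moved the other way, from 50.3% (47.7 to 52.8) and 64.2% (54.9 to 72.7) in TNF- and TNF+ lung to 13.8% (13.1 to 14.6) and 11.7% (8.16 to 16.1) in synovium.

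**Figure D2:**
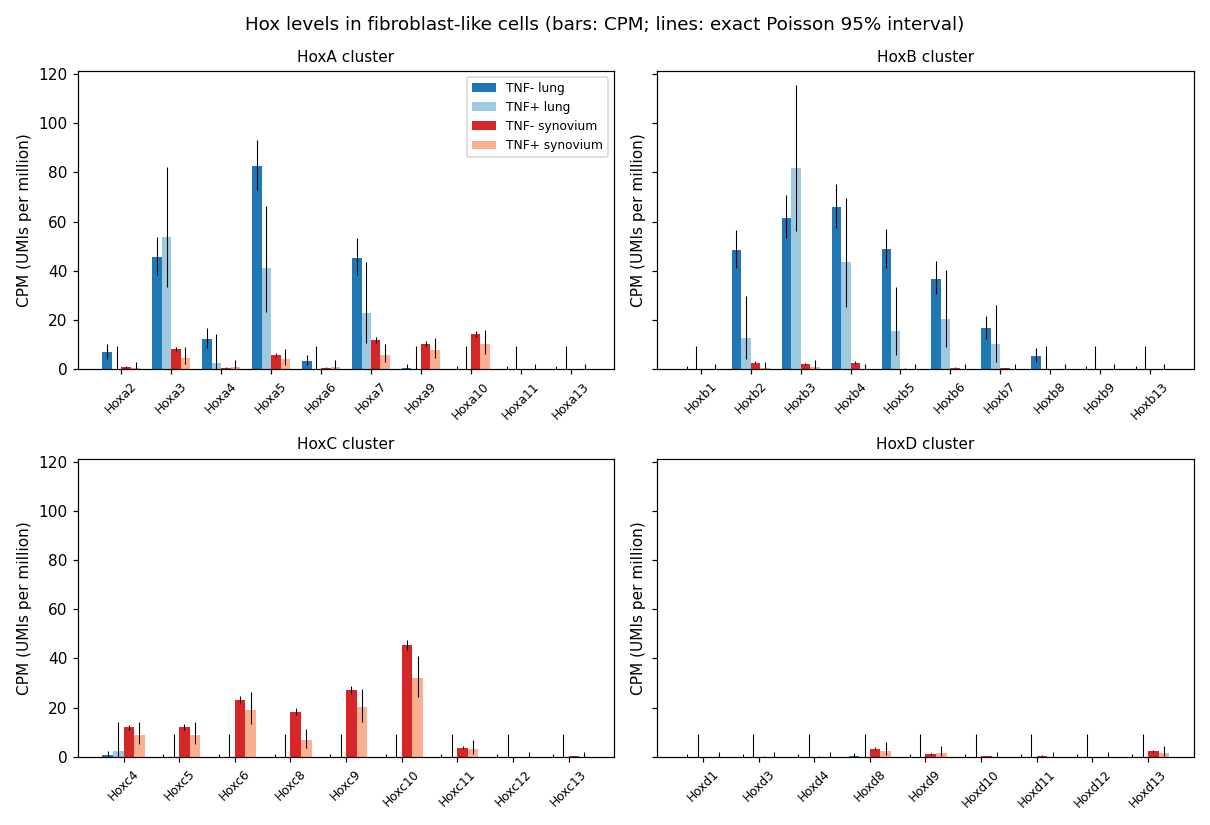
Level of single members in fibroblast-like cells (bars, CPM; lines, exact Poisson 95% interval), 1 panel per Hox cluster, in TNF- and TNF+ lung and synovium. HoxB bars belong to lung, HoxC bars to synovium, and in HoxA the bars change from lung to synovium between Hoxa7 and Hoxa9.

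Within HoxA the change fell between Hoxa7 and Hoxa9. Hoxa5, which is needed for lung and foregut development, had 82.6 (73.0 to 93.2) CPM in TNF- lung fibroblasts, 40.9 (23.4 to 66.4) in TNF+ lung, 5.58 (4.87 to 6.38) in TNF- synovium and 4.12 in TNF+ synovium. Hoxa3, a gene of pharyngeal patterning, had 45.5 (38.4 to 53.5), 53.7 (33.2 to 82.1), 8.08 (7.21 to 9.03) and 4.64 CPM in that order. Hoxa7 had 45.2 (38.1 to 53.2), 23.0, 11.8 (10.7 to 12.9) and 5.67 CPM. For each of these 3 genes both lung libraries were above both synovial libraries. The Hoxa7 value of TNF+ lung rested on 9 UMIs, and its interval (10.5 to 43.7) overlapped that of TNF- synovium.
Hoxa9 had 2 UMIs in TNF- lung fibroblasts and 0 in TNF+ lung, but 10.3 (9.29 to 11.3) CPM in TNF- and 7.73 (4.33 to 12.8) CPM in TNF+ synovium. Hoxa10, a patterning gene of the proximal limb, had 0 UMIs in either lung library and 14.3 (13.2 to 15.6) and 10.3 (6.30 to 15.9) CPM in TNF- and TNF+ synovium. The log2 ratio of TNF- synovium over TNF- lung was -3.89 (-4.15 to -3.62) for Hoxa5, -2.49 (-2.78 to -2.20) for Hoxa3 and -1.94 (-2.21 to -1.66) for Hoxa7, and 4.04 (2.18 to 7.09) for Hoxa9. Where a library had 0 UMIs it was set to a floor of 3 UMIs, which gave at least 3.94 for Hoxa10. The levels of Hoxa3 and Hoxa4 to Hoxa6 share the overlapping stretch named above.

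HoxB was a lung cluster in fibroblasts. Hoxb4 had 65.8 (57.2 to 75.3) CPM in TNF- lung, 43.5 (25.3 to 69.6) in TNF+ lung, 2.63 (2.14 to 3.19) in TNF- synovium and 0 UMIs in TNF+ synovium. Hoxb3 had 61.4 (53.1 to 70.6), 81.8 (56.0 to 115), 1.96 (1.54 to 2.45) and 1.03 CPM, and Hoxb2, a hindbrain patterning gene, 48.3 (41.0 to 56.6), 12.8, 2.57 (2.09 to 3.13) and 0.515 CPM. Here too no synovial library reached a lung library. Hoxb5, which is expressed in lung mesenchyme during branching, had 48.6 (41.3 to 56.9) and 15.3 CPM in lung, 4 UMIs (0.103 CPM) in TNF- synovium and 0 in TNF+ synovium. Hoxb6 had 36.8 (30.5 to 44.1), 20.5 and 0.592 (0.375 to 0.888) CPM and then 0 UMIs. The log2 ratios of TNF- synovium over TNF- lung were -4.65 (-5.00 to -4.30) for Hoxb4, -4.97 (-5.37 to -4.58) for Hoxb3, -4.23 (-4.61 to -3.86) for Hoxb2, -8.88 (-10.78 to -7.50) for Hoxb5 and -5.96 (-6.67 to -5.30) for Hoxb6. Hoxb5 had the lowest ratio of the 24 members compared.

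HoxC was the reverse. Hoxc10, a posterior and hindlimb gene, was the most abundant member in synovial fibroblasts with 1768 UMIs, 45.5 (43.4 to 47.7) CPM, in TNF- mice and 32.0 (24.5 to 41.0) CPM in TNF+ mice, and had 0 UMIs in both lung libraries. Hoxc9, a thoracic patterning gene, had 27.1 (25.5 to 28.8) and 20.1 (14.3 to 27.5) CPM in synovium and 0 UMIs in lung. Hoxc6 had 23.2 (21.7 to 24.8) and 19.1 (13.4 to 26.3) CPM in synovium and 0 UMIs in lung.
The other HoxC members ran lower. Hoxc5 runs across Hoxc6, Hoxc8, Hoxc9 and Hoxc10 on the same strand. Reads from a shared stretch cannot be given to 1 gene, so the levels and order of these members share that limit. In TNF- and TNF+ synovial fibroblasts Hoxc8 had 18.4 (17.1 to 19.8) and 6.70 CPM, Hoxc5 12.1 (11.1 to 13.3) and 8.76 CPM, Hoxc4 11.9 (10.9 to 13.1) and 8.76 CPM, and Hoxc11 3.58 (3.01 to 4.22) and 3.09 CPM. In lung fibroblasts these 4 had 0 UMIs, except for 2 and 1 UMIs of Hoxc4 in TNF- and TNF+ lung. Against the floor, Hoxc10 was at least 48.6-fold higher in synovium of TNF- mice, and the log2 ratio was at least 4.86 for Hoxc9, 4.63 for Hoxc6, 4.30 for Hoxc8, 3.70 for Hoxc5 and 1.94 for Hoxc11, and it was 4.26 (2.40 to 7.31) for Hoxc4.

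HoxD was low in fibroblasts of either tissue. Hoxd8 had 3.37 (2.82 to 4.00) CPM in TNF- and 2.58 in TNF+ synovium and 1 and 0 UMIs in lung, a log2 ratio of 3.43 (0.93 to 8.75) in TNF- mice. Hoxd13, a gene of the most distal limb, is named here after its values were seen. It had 95 UMIs, 2.44 (1.98 to 2.99) CPM, in TNF- and 3 UMIs, 1.55 (0.319 to 4.52) CPM, in TNF+ synovium. It had none in lung, at least 1.39 on the log2 scale in TNF- mice. The members between 20 and 100 UMIs were Hoxa2 (-3.01), Hoxa4 (-4.56), Hoxa6 (-2.60) and Hoxb7 (-6.00), all lower in synovium, and Hoxd9 and Hoxd13. Members under 20 UMIs over both TNF- fibroblast libraries included Hoxa11, Hoxa13, Hoxb1, Hoxb8, Hoxb9, Hoxb13, Hoxc12, Hoxc13, Hoxd1, Hoxd3, Hoxd4, Hoxd10, Hoxd11 and Hoxd12, and Hoxd12 had no UMI in any cell of the series.

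Of the 24 members with at least 20 UMIs over both TNF- fibroblast libraries, 11 were at least 2-fold higher in synovium, 12 were at least 2-fold lower and 1 (Hoxd9, at least 0.43) lay between. Over all 16080 genes compared in the same way, 13.2% were higher and 26.0% lower, and the median log2 ratio was -0.44. The intervals of all 23 members called excluded 0. In the TNF+ pair 8 members were compared, 3 were higher (Hoxc6, Hoxc9 and Hoxc10, at least 1.31, 1.39 and 2.06) and 4 lower (Hoxa3 -3.53, Hoxa5 -3.31, Hoxa7 -2.02 and Hoxb3 -6.31), against 12.2% higher and 33.3% lower among 8975 genes. All 7 had the same direction as in the TNF- pair, which uses other libraries. With each cell thinned to 1000 UMIs, 4 and 6 members were called higher and lower in the TNF- pair and 0 in the TNF+ pair.

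**Figure D3:**
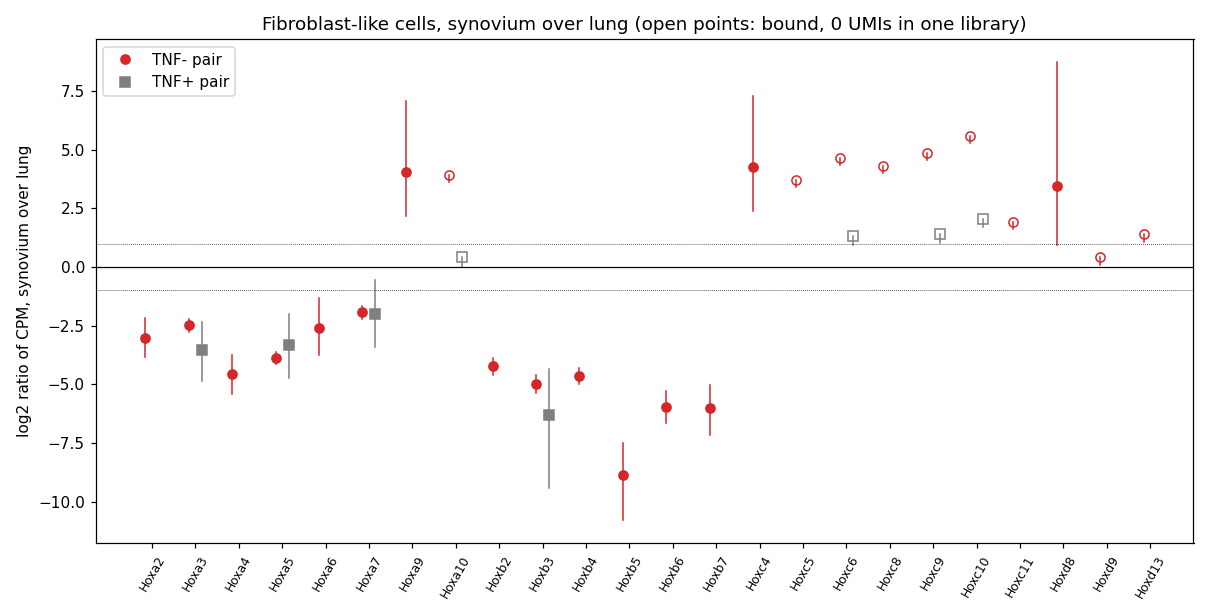
Log2 ratio of CPM, synovium over lung, in fibroblast-like cells for each of the 24 members with at least 20 UMIs (red circles, TNF- pair; grey squares, TNF+ pair; lines, 95% conditional binomial interval; open points, lower bounds from a library with 0 UMIs; dotted lines, 2-fold). All HoxB points and Hoxa2 to Hoxa7 lie below 0, and Hoxa9, Hoxa10, HoxC and HoxD lie above.

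The same picture held cell by cell. At 1000 UMIs per cell, 13.7% (12.4 to 15.1) of 2659 TNF- synovial fibroblasts and 11.8% (7.82 to 17.0) of 211 TNF+ synovial fibroblasts had a HoxC UMI, and 0 of 367 TNF- lung fibroblasts did, which allows up to 0.817% when the limit is set at 3 cells. Synovial lymphocytes of TNF- mice gave 0.298% (1 of 336 cells). HoxB UMIs were found in 23.2% (18.9 to 27.8) of the 367 lung fibroblasts and in 0.827% (0.519 to 1.25) of the TNF- synovial fibroblasts. Without thinning, at median depths of 14707.5 and 5794 UMIs, 76.1% of TNF- synovial fibroblasts had a HoxC UMI and 59.0% of TNF- lung fibroblasts a HoxB UMI.

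Clusters of fibroblasts differed in the amount of Hox RNA in lung and in the level of HoxD in synovium. In lung, cluster 27 (98 cells, leading genes Hhip, Cyp2e1 and Lgr5) had 590 (543 to 641) CPM of Hox RNA and 412 (372 to 454) CPM of HoxB. Cluster 24 (170 cells, C7, Tecrl and Plcxd3) had 445 (417 to 475) and 241 (221 to 263) CPM, and cluster 14 (309 cells, Inmt, Mfap4 and Cxcl14) had 293 (249 to 342) and 139 (109 to 174) CPM. The clusters kept this order in TNF- lung alone, at 599, 457 and 310 CPM of Hox RNA, and median depth was 9964, 12882.5 and 1016 UMIs per cell. Hoxb8, with 17 UMIs in all TNF- lung fibroblasts, had 15 UMIs in cluster 27 and 2 in cluster 24. Hoxb6 had 65.7 (50.6 to 83.9), 24.0 (17.8 to 31.6) and 22.3 (11.5 to 38.9) CPM in clusters 27, 24 and 14, whereas Hoxa5 had 86.2 (68.8 to 107), 79.6 (68.0 to 92.7) and 57.5 (39.1 to 81.6) CPM.

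In synovium, clusters 1 (1537 cells, Grm8, Kcnb2 and Cxcl14) and 2 (966 cells, Gdf10, C4b and Sfrp4) had 208 (202 to 214) and 205 (197 to 212) CPM of Hox RNA. Cluster 8 (376 cells), which carried all 11 tendon markers, had a like sum of 216 (202 to 231) CPM but 21.3 (17.0 to 26.3) CPM of HoxD against 5.96 (4.99 to 7.07) in cluster 1 and 7.06 (5.75 to 8.56) in cluster 2. A pair of HoxD members, named after their values were seen, gave most of it. Hoxd8 had 9.40 (6.65 to 12.9) CPM in the tendon cluster against 2.24 and 3.32 in clusters 1 and 2, and Hoxd13 had 5.69 (3.61 to 8.54) against 2.51 and 1.31. An unnamed cluster (5, 700 cells, Mrgprg, Krtdap and Sv2c) with 681 of its cells from TNF- synovium had 200 (192 to 209) CPM, with HoxC at 129 (122 to 136), so its Hox pattern was that of the synovial fibroblasts. Another unnamed cluster (14, 233 cells, Saa3, Cxcl5 and Mmp13), with 231 cells from TNF+ synovium, had 105 CPM with HoxC at 71.0 (62.8 to 80.0) and Hoxd8 at 9.77 (6.88 to 13.5).

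**Figure D4:**
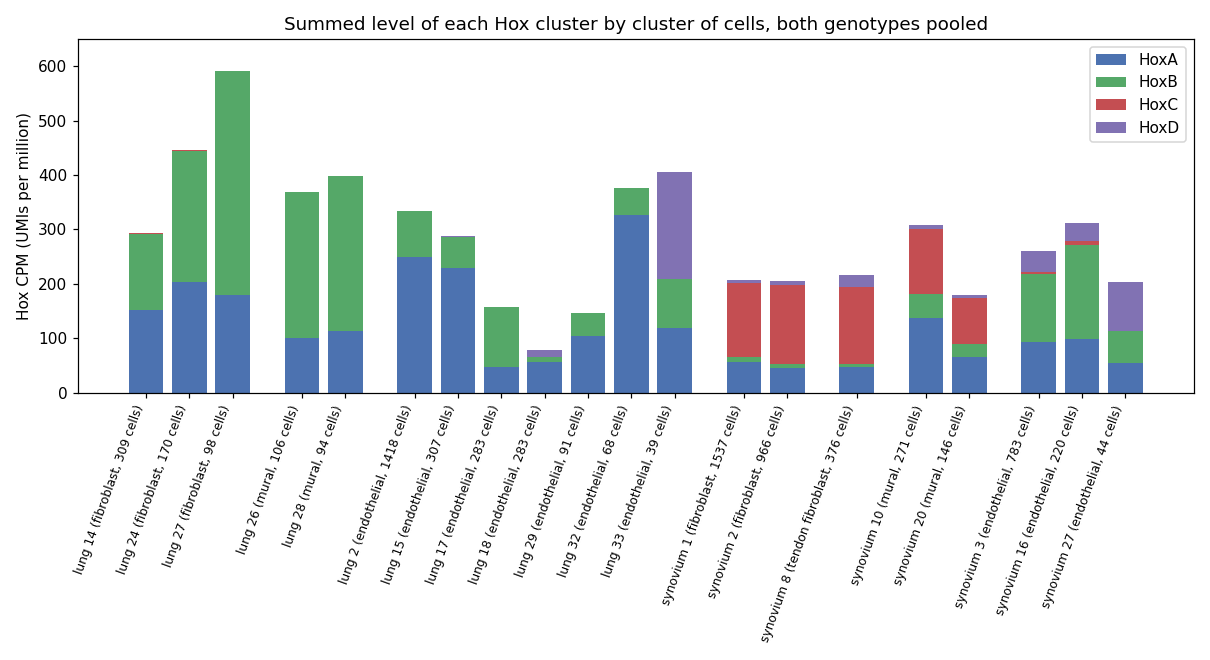
Summed level of the 4 Hox clusters (CPM, stacked bars from 0) in each cluster of fibroblast-, mural- and endothelial-like cells, both genotypes pooled, labelled by tissue, cluster number and number of cells. Lung fibroblast clusters rise to 590 CPM, with HoxB leading in lung clusters 27 and 24 but not in lung cluster 14. Synovial fibroblast clusters hold mostly HoxC, and HoxD is widest in lung cluster 33 (197 CPM) and synovium cluster 27 (89.5 CPM).

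Skeletal muscle cells of TNF- synovium (559 cells) shared the HoxC pattern of the fibroblasts around them. Their Hox sum was 174 (162 to 186) CPM, HoxC gave 72.1% (69.0 to 75.1) of 843 UMIs and HoxB 0.593% (0.193 to 1.38). Hoxc10 had 45.5 (39.7 to 51.9) and Hoxc9 27.6 (23.1 to 32.7) CPM, the values in TNF- synovial fibroblasts being 45.5 and 27.1. Of these muscle cells, 368 lay in cluster 7 (leading genes Calcr, Myf5 and Pax7) and 191 in cluster 17 (Tnnc2, Myh4 and Pvalb). These clusters had medians of 11428 and 1142.5 UMIs per cell over both genotypes. The class is described because it was deep enough, and the choice was made after the values were seen.

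Mural cells showed the tissue contrast of fibroblasts in part. In TNF- lung mural cells the 5 leading members were Hoxb2 at 90.2 (71.2 to 113) CPM, Hoxb3 at 65.6 (49.6 to 85.2), Hoxb4 at 64.4 (48.5 to 83.9), Hoxb5 at 43.3 (30.5 to 59.7) and Hoxa5 at 30.5 (19.9 to 44.6), and HoxC had 0 UMIs. In TNF- synovium they were Hoxa7 at 33.8 (26.2 to 43.0), Hoxa3 at 29.2 (22.1 to 37.8), Hoxc6 at 26.6 (19.9 to 34.9), Hoxb2 at 24.6 (18.1 to 32.6) and Hoxc10 at 24.1 (17.7 to 32.0) CPM. HoxC made up 39.2% (35.1 to 43.5) of Hox UMIs in synovial mural cells and groups 9 to 13 made up 27.1% (23.4 to 31.1), less than in the fibroblasts of that library. Of 16 members compared, 8 were at least 2-fold higher in synovium (Hoxa9, Hoxa10 and 6 HoxC members, all bounds) and 5 lower (Hoxb2 to Hoxb6), where 12.1% and 21.0% of 10214 genes were higher and lower. Hoxa3 (0.06, -0.66 to 0.81), Hoxa5 (-0.81, -1.59 to -0.01) and Hoxa7 (0.33, -0.38 to 1.08) did not reach 2-fold, unlike in fibroblasts, though the difference between the classes was not tested. In the TNF+ libraries the leading members were Hoxb4, Hoxb2, Hoxa3, Hoxb3 and Hoxb5 in lung, at 9 to 5 UMIs, and Hoxc10, Hoxc6, Hoxa7, Hoxc9 and Hoxa9 in synovium, at 21 to 11 UMIs.

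Endothelium had little or no HoxC in either tissue. HoxC had 0 UMIs in lung endothelium of either genotype, and 17 UMIs in each synovial library, 5.40 CPM in TNF- mice against 5.90 CPM in the lymphocytes of that library. In TNF+ synovium it was 4.26 CPM against 0 UMIs in lymphocytes. In its place synovial endothelium used HoxB (48.5%, 45.1 to 52.0, in TNF- and 49.8%, 46.8 to 52.8, in TNF+), HoxA (34.6% and 34.3%) and HoxD (14.8%, 12.5 to 17.4, and 14.3%, 12.3 to 16.6). Groups 9 to 13 gave 6.09% (4.57 to 7.93) and 8.78% (7.16 to 10.6) of Hox UMIs there.
Lung endothelium was led by a single gene. Hoxa5 had 2094 of 4270 Hox UMIs in TNF- lung, 153 (146 to 159) CPM, and 41.6 (31.9 to 53.3) CPM in TNF+ lung, against 21.0 (16.2 to 26.7) and 25.0 (20.4 to 30.4) CPM in TNF- and TNF+ synovium. Hoxa3 at 33.5 (30.5 to 36.7), Hoxb5 at 28.2 (25.5 to 31.2), Hoxb4 at 27.5 (24.8 to 30.4) and Hoxb3 at 19.9 (17.6 to 22.4) CPM came next in TNF- lung. In TNF- synovium Hoxa7 led at 31.5 (25.6 to 38.3) CPM, then Hoxb6 at 28.3 (22.7 to 34.8), Hoxa3 at 26.7 (21.3 to 33.1), Hoxb4 at 24.8 (19.6 to 30.9) and Hoxb7 at 22.6 (17.6 to 28.5). In TNF+ synovium the order was Hoxa7 at 38.8 (32.9 to 45.4), Hoxb4 at 26.5 (21.7 to 32.1), Hoxa5, Hoxb7 at 21.0 (16.8 to 26.0) and Hoxd8 at 20.3 (16.1 to 25.2). In TNF+ lung Hoxa5 was followed by Hoxa3 at 20.8 (14.1 to 29.5), Hoxb4 at 18.8 (12.5 to 27.1), Hoxb3 at 14.1 (8.71 to 21.5) and Hoxa7 at 10.1 (5.63 to 16.6). Most neighbours below the first place overlapped in their intervals.

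**Figure D5:**
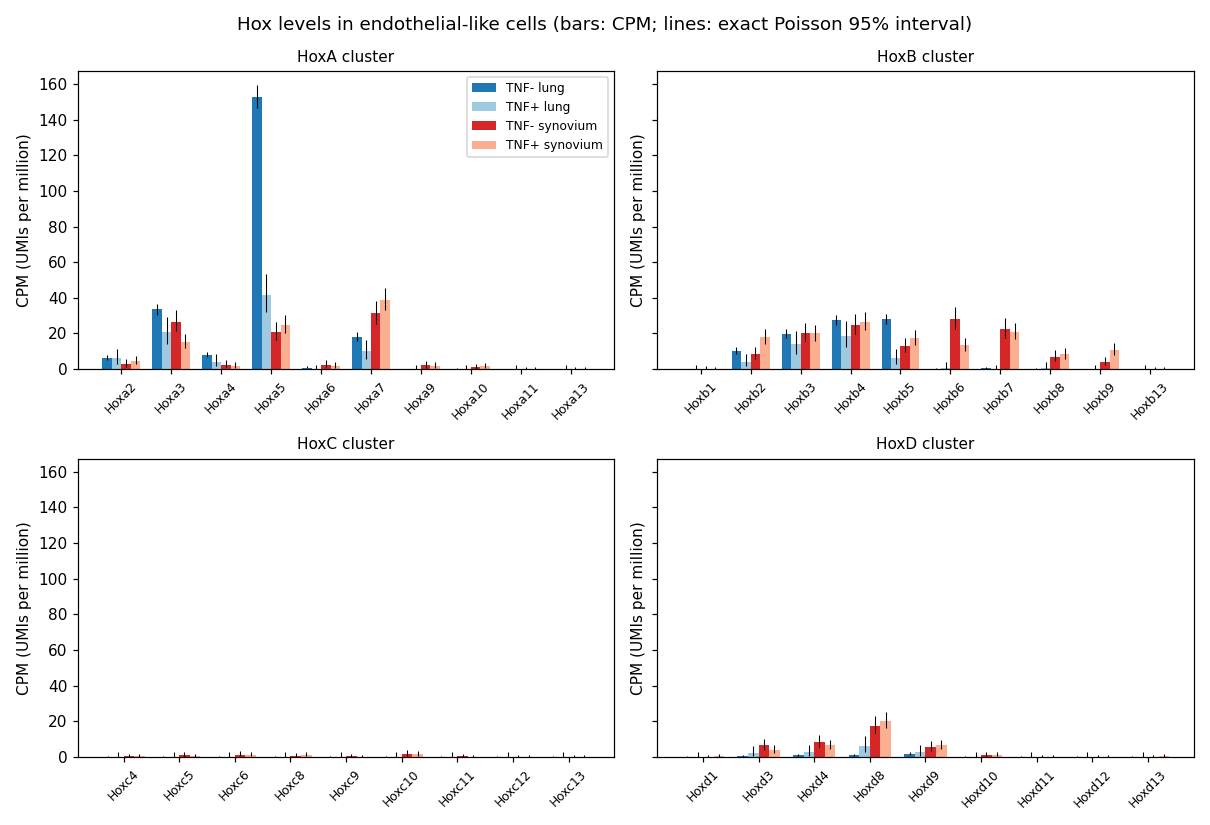
Level of single members in endothelial-like cells (bars, CPM; lines, exact Poisson 95% interval), 1 panel per Hox cluster, in the 4 libraries. Hoxa5 stands at 153 CPM in TNF- lung, Hoxb6 to Hoxb9 and Hoxd8 appear in synovium, and the HoxC panel is almost empty.

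Hoxb6 and Hoxb7 had opposite patterns in fibroblasts and endothelium. In lung, Hoxb6 had 118 UMIs in TNF- fibroblasts and 4 in TNF- endothelium, where more UMIs were sequenced, a log2 ratio of 6.98 (5.58 to 8.88). In TNF- synovium it had 0.592 CPM in fibroblasts and 28.3 in endothelium, a ratio of -5.58 (-6.31 to -4.90). Hoxb7 gave 5.02 (3.87 to 6.40) in lung and -6.45 (-7.58 to -5.49) in synovium. In the same synovial library Hoxc9 ran the other way, at 6.41 (3.93 to 11.72), with 1052 UMIs in fibroblasts and 1 in endothelium. The compared classes came from 1 library in each case and so shared the enzyme and the genotype. Their median depth differed, at 14707.5 UMIs in fibroblasts and 4715 in endothelium of TNF- synovium, and its part was not tested. The pair Hoxb6 and Hoxb7 was picked after its values were seen.

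Of 17 members compared in TNF- endothelium, 8 were at least 2-fold higher in synovium (Hoxa6, Hoxb6, Hoxb7, Hoxb8, Hoxd3, Hoxd4, Hoxd8 and Hoxd9), 4 lower (Hoxa2, Hoxa4, Hoxa5 and Hoxb5) and 5 lay between, beside 12.4% higher and 27.3% lower of 13822 genes. The log2 ratio of synovium over lung was 6.60 (5.19 to 8.51) for Hoxb6, 5.47 (4.35 to 6.83) for Hoxb7, 4.32 (3.40 to 5.36) for Hoxd8 and -2.86 (-3.24 to -2.51) for Hoxa5. In the TNF+ pair 15 members were compared and 10 were higher and none lower, where 13.1% and 32.6% of 11489 genes were higher and lower. The intervals of 8 of the 10 were clear of 0. Hoxa5 had -0.73 (-1.20 to -0.25) in that pair, and Hoxb5, lower in synovium in TNF- mice at -1.12 (-1.62 to -0.65), was higher at 1.52 (0.51 to 2.71) in TNF+ mice. That last value rests on 9 Hoxb5 UMIs in TNF+ lung endothelium, which had a median of 774 UMIs per cell. Different clusters held lung endothelium in TNF- and TNF+ mice, as given below, and their part was not tested. Hoxb6, Hoxb7, Hoxb8, Hoxd4, Hoxd8 and Hoxd9 were higher in synovium in both pairs.

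Clusters of lung endothelium differed by member. Clusters 2, 15 and 32 (1418, 307 and 68 cells, nearly all TNF-) had 178 (170 to 186), 172 (137 to 213) and 194 (162 to 231) CPM of Hoxa5. Cluster 17 (283 cells, Tmeff2, Lmntd1 and Slc5a12) had 22.1 (16.4 to 29.1) CPM of Hoxa5 but 62.3 (52.4 to 73.4) CPM of Hoxb5, whereas cluster 32 had 1 UMI of Hoxb5. Cluster 33 (39 cells), whose leading genes include Prox1, a master regulator of lymphatic endothelium, and Ccl21a, a lymphatic chemokine, had 197 (154 to 249) CPM of HoxD. Its 71 HoxD UMIs were Hoxd9 (24), Hoxd8 (19), Hoxd4 (16), Hoxd3 (10) and Hoxd10 (2), and 35 of its cells were from TNF- lung. Clusters 17, 29 and 32 had 0 HoxD UMIs and cluster 2 had 1, so in TNF- lung 54 of the 56 endothelial HoxD UMIs came from cluster 33. In synovium the cluster led by Ccl21a, Mmrn1 and Nts (27, 44 cells) had 89.5 (60.4 to 128) CPM of HoxD against 37.5 (32.4 to 43.2) and 33.6 (25.2 to 43.8) in clusters 3 and 16. The members of both clusters were picked out after these values were seen.

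Immune cells had low Hox levels, and in lung most of their Hox UMIs were HoxB. Their counts were not low in TNF+ lung, where immune cells were many. Myeloid cells had 873 Hox UMIs and lymphocytes 358 there, against 209 in endothelium, 120 in fibroblasts and 51 in mural cells. HoxB gave 77.5% (72.4 to 82.1) of 307 and 81.6% (77.2 to 85.4) of 358 Hox UMIs in TNF- and TNF+ lung lymphocytes. Hoxb4, a gene of blood stem cells, had 14.5 (11.5 to 18.1) and 12.2 (11.1 to 13.3) CPM in lung macrophages and monocytes and 15.5 (10.1 to 22.7) and 14.2 (8.44 to 22.5) CPM in natural killer cells. Hoxa5, the most abundant member in both TNF- lung fibroblasts and endothelium, had 0.558 and 0.492 CPM in the same macrophages and monocytes. In fibroblasts and endothelium of TNF- lung Hoxa5 was the higher of the pair, and in these macrophages Hoxb4 was. The pair was set side by side after the values were seen.

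The comparison of TNF+ with TNF- mice shares these libraries with the tissue comparison and asks whether the Hox pattern moves with the transgene. In synovial fibroblasts the summed Hox level was lower in TNF+ mice, at 141 against 211 CPM, a log2 ratio of -0.58 (-0.76 to -0.41). Of 22 members compared, 2 were at least 2-fold higher (Hoxa4 and Hoxa6, with 2 UMIs each in TNF+), 3 lower and 17 between, beside 7.04% higher and 14.6% lower of 15700 genes. The members' median log2 ratio was -0.46 and that of all genes -0.16. The 6 named members with at least 50 UMIs and the largest ratios were Hoxb2 (-2.32, -7.64 to 0.19), Hoxc8 (-1.46, -2.38 to -0.68), Hoxa7 (-1.06, -2.07 to -0.20), Hoxb3 (-0.92, -4.00 to 0.98), Hoxa3 (-0.80, -1.94 to 0.14) and Hoxb4 (0 UMIs in TNF+, at most -0.76). Only Hoxc8 and Hoxa7 of these were both called and clear of 0.
Within clusters the sum also lay lower in TNF+ cells, at 98.4 (70.6 to 133) against 210 (204 to 216) CPM in cluster 1, 139 (112 to 169) against 208 (201 to 216) in cluster 2 and 164 (137 to 194) against 229 (213 to 246) in the tendon cluster. The class was made up differently, with 73 tendon cells of 215 in TNF+ and 303 of 2664 in TNF- synovium. It leaves out the unnamed clusters 14 (231 TNF+ cells) and 5 (681 TNF- cells), whose leading genes were mixed. With such clusters counted it held 465 TNF+ and 3347 TNF- cells, and the closing section gives that ratio. The tendon share and the marker sums below are those of the class without them. Tendon markers summed to 11417 against 2336 CPM (11 of 11 found in both), chondrocyte markers to 965 against 240 CPM (11 and 13 of 14) and macrophage markers to 339 against 432 CPM (14 and 22 of 25), and median depth was 7747 against 14707.5 UMIs. Their part in the ratio was not tested.

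Synovial mural cells had a like difference, 180 against 276 CPM, -0.62 (-0.88 to -0.36). Of 14 members compared, 5 were lower in TNF+ and none higher, beside 21.4% lower and 5.11% higher of 9503 genes. Hoxa3 (-1.50, -2.70 to -0.48), Hoxb2 (-1.25, -2.47 to -0.21) and Hoxa7 (-1.18, -2.17 to -0.31) were lower, and Hoxc6 (-0.37, -1.23 to 0.43) and Hoxc10 (0.00, -0.82 to 0.77) were the other members with at least 50 UMIs. The class lay in different clusters, with 38 TNF+ and 233 TNF- cells in cluster 10 (leading genes include Abcc9 and Higd1b) and 87 and 59 in cluster 20 (Pln, Rergl and Olfr78). Within cluster 10 the sum was 269 (198 to 357) against 313 (284 to 345) CPM and within cluster 20 it was 157 (129 to 189) against 202 (169 to 239), with overlapping intervals in both. Fibroblast markers summed to 1766 against 2960 CPM (26 of 27 found in both), macrophage markers to 320 against 163 (16 and 18 of 25), and 7.12% against 4.35% of UMIs were mitochondrial. Their part in the ratio was not tested. Scaling by the median of ratios in place of total UMIs took the summed ratio to -0.30.

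In synovial endothelium the sum did not differ beyond counting error, at 271 against 266 CPM, a ratio of 0.03 (-0.11 to 0.16). Of 16 members compared, 2 were higher (Hoxb9 and Hoxb2), 1 lower (Hoxb6) and 13 between, beside 7.52% higher and 9.60% lower of 11672 genes. Hoxb9, a thoracic patterning gene, had 10.8 (7.79 to 14.5) CPM in TNF+ and 4.13 (2.20 to 7.07) in TNF- mice, a ratio of 1.38 (0.46 to 2.40). Hoxb2 had 17.8 (13.9 to 22.4) and 8.58 (5.66 to 12.5) CPM, 1.05 (0.39 to 1.75), and Hoxb6 13.3 (9.94 to 17.4) and 28.3 (22.7 to 34.8) CPM, -1.09 (-1.61 to -0.59). The next in size were Hoxa3 (-0.81, -1.31 to -0.31), Hoxb5 (0.41) and Hoxd4 (-0.40, -1.23 to 0.43). Neighbouring HoxB genes thus had ratios of either sign. Cluster 16 (Gkn3, Cytl1 and Adra2c) held 142 of 440 TNF+ and 78 of 607 TNF- cells, mural markers summed to 743 against 210 CPM (19 of 21 found in both), macrophage markers to 468 against 227 (21 and 19 of 25) and fibroblast markers to 692 against 1323 (26 and 27 of 27). Their part in these ratios was not tested.

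Lung stroma had lower Hox sums in TNF+ mice in all 3 classes. Fibroblasts had 307 against 481 CPM, -0.65 (-0.93 to -0.38), mural cells 282 against 421, -0.58 (-1.03 to -0.15), and endothelium 140 against 312, -1.15 (-1.36 to -0.95). The fibroblasts lay in different clusters, with 90 of 116 TNF+ and 219 of 461 TNF- cells in cluster 14, which had the lowest Hox sum and depth of the 3 lung fibroblast clusters, and 3 and 95 cells in cluster 27. Within cluster 14 the sum was 241 (165 to 340) against 310 (258 to 369) CPM and within cluster 24 it was 356 (284 to 440) against 457 (427 to 489). The mural cells were 85 of 94 in cluster 26 in TNF+ and 85 of 106 in cluster 28 in TNF- lung. In fibroblasts 11 members were compared and 4 were lower (Hoxa4, Hoxa5, Hoxb2 and Hoxb5) and none higher, beside 10.8% lower and 9.99% higher of 11306 genes. The members with at least 50 UMIs and the largest ratios were Hoxb2 (-1.92, -3.56 to -0.67), Hoxb5 (-1.66, -3.13 to -0.51), Hoxa5 (-1.01, -1.84 to -0.29), Hoxa7 (-0.97, -2.13 to -0.01), Hoxb6 (-0.85, -2.09 to 0.18) and Hoxb7 (-0.69, -2.62 to 0.75). Hoxb3 (0.41, -0.17 to 0.96) and Hoxa3 (0.24, -0.50 to 0.90), named after their values were seen, were not lower. In mural cells the members with at least 50 UMIs were Hoxb2 (-1.03, -2.29 to 0.02), Hoxb3 (-0.76, -2.14 to 0.37) and Hoxb4 (-0.37, -1.58 to 0.65).

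In lung endothelium 3 of 11 members were lower in TNF+ mice and 1 higher, beside 8.80% lower and 9.95% higher of 13429 genes. Hoxb5 had -2.23 (-3.37 to -1.29), Hoxa5 -1.88 (-2.27 to -1.51) and Hoxb2 -1.37 (-2.84 to -0.21), and Hoxa4 (-0.98, -2.46 to 0.18), Hoxa7 (-0.86, -1.72 to -0.11) and Hoxa3 (-0.69, -1.26 to -0.16) lay between. The member that was higher, Hoxd8 (2.78, 1.36 to 4.15), rested on 9 and 12 UMIs, and 19 of these 21 UMIs (all 12 of TNF-) lay in cluster 33, which had 4 TNF+ cells. Different clusters held the class in the 2 libraries. Cluster 2 held 1413 of 2097 cells in TNF- and 5 of 392 in TNF+ lung, and clusters 18 and 29 held 266 and 87 TNF+ cells against 17 and 4. Hoxa5 had 57.7 (42.7 to 76.3) CPM in the TNF+ cells of cluster 29 and 28.2 (10.3 to 61.4) in those of cluster 18, which had a median depth of 654 UMIs.
Markers of other cells rose in the same TNF+ lung libraries. Macrophage markers summed to 3766 against 512 CPM in fibroblasts (22 and 23 of 25 found), 4777 against 241 in mural cells (23 and 16 of 25) and 2794 against 1309 in endothelium (25 and 24 of 25). B and plasma cell markers summed to 2741 against 355, 5871 against 317 and 2586 against 332 CPM, and the classes' own markers to 10321 against 16884, 17209 against 31099 and 10851 against 19421 CPM. Their part in the lower Hox sums was not tested. With the lymphocyte level of the library taken off, the endothelial ratio was -1.38, a step that also takes off any Hoxb4 that the lymphocytes make themselves.

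The lists of related genes were described in TNF- fibroblasts, synovium over lung, where the median of all genes was -0.44 and 13.2% of all genes compared were higher and 26.0% lower. Of the 9 TALE cofactors, all compared, none were at least 2-fold higher in synovium and 5 were lower, with a median of -1.04. Meis1 had 62.5 CPM in synovium and 475 in lung (-2.93, -3.02 to -2.83), Pknox2 -1.36 (-1.51 to -1.21) and Pbx2 -1.34 (-1.67 to -0.99). In all, 4 of the cofactors differed by less than 2-fold.
Transcription factors of the limb were mostly higher in synovium, 15 of the 26 compared (of 32 listed), with 5 lower and 6 between and a median of 2.16. Shox2, a gene of the proximal limb, had 75.6 CPM in synovium and 2 UMIs in lung (6.92, 5.07 to 9.97) and Tbx15 5.46 (4.58 to 6.53), while Tbx2 was lower at -5.27 (-5.46 to -5.09). All 7 lung and foregut factors compared (of 13 listed) were lower in synovium. Tcf21, a lung mesenchyme factor, had 1367 UMIs in lung and 0 in synovium (at most -12.43), and Foxf2 and Foxf1, factors of foregut mesenchyme, had -7.74 and -5.58.

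Of the RNAs antisense to or between Hox genes, 7 of 11 were compared, 5 were lower in synovium and none higher, with a median of -3.43. Hoxb5os had -7.63, Hoxb3os -3.92, Hoxaas3 -3.43 and Hotairm1 -2.47, each the direction of its own cluster's lung genes. Hotair, which lies between Hoxc11 and Hoxc12, had 57 UMIs in TNF- synovial fibroblasts and 0 in the other 3 fibroblast libraries, and Evx2, beside Hoxd13, had 67 UMIs in TNF- and 3 in TNF+ synovium and 0 in lung. Both were named after their values were seen. The synovial fibroblasts held 38856173 UMIs in all in TNF- and 1940317 in TNF+ mice, so these raw counts are not levels. The log2 ratio of TNF+ over TNF- synovium was -0.16 for Evx2, and the 0 of Hotair in TNF+ comes from the library with fewer UMIs. In the retinoic acid pathway, which sets Hox expression in the embryo, 3 of 15 genes compared (of 18) were higher and 5 lower, with a median of -0.34. Cyp26b1, which breaks down retinoic acid, had 5.39, Crabp2, a carrier of it in the cell, 3.06 and Aldh1a1, which makes it, -2.85. Of the 23 Polycomb and Trithorax regulators, which maintain Hox states, all compared, 2 were higher, 4 lower and 17 between, with a median of -0.49. The medians of these last 2 lists lay near that of all genes. Named genes were Kdm6b (2.08), Cbx8 (-1.94), Phc2 (-1.48) and Ezh2 (1.34).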

How the data were processed

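Single-cell RNA was measured in 4 libraries, 1 per genotype and tissue. The authors made the deposited UMI counts per gene and cell with Cell Ranger 7.0.1 on mm10 at default parameters, which count introns. From these counts, cells with 200 to 5000 genes and at most 20% mitochondrial UMIs were kept (25524 cells), in place of which the closing section gives other filters. Cells were clustered per tissue with scanpy 1.11.5 (2000 variable genes, 30 components, 20 neighbours, Leiden 0.8 with leidenalg 0.10.2), leaving out the Hox genes and all listed genes, and clusters were named from 332 markers of 20 types. Names were thus rebuilt here, and 7.91% of cells stayed unnamed. The highest doublet scores (1753 cells) were left in.

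UMIs were summed per library and class of at least 50 cells with Python 3.11.15, numpy 2.4.6, pandas 2.3.3 and scipy 1.17.1. Intervals are exact 95% Poisson (CPM), binomial (shares) and conditional binomial (log2 ratios), and cover counting error only, since there are no replicates. Genes with at least 20 UMIs over both libraries were compared, and a gene was called at 2-fold or more. A count of 0 was set to 3 UMIs per library and the ratio given as a bound. The comparison was tested on simulated data.

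Members with at least 100 UMIs over both TNF- fibroblast libraries were named with values, members under 20 UMIs were named as too few, the 5 leading members were named in the other classes, and for genotype the 6 largest ratios among members with at least 50 UMIs (4 for each related list). The members and lists were chosen with earlier results of these data known. Overlapping and antisense genes may share reads. The human transgene was not analysed here, and some genes that these rules name are not reported here.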

Additional observations from a re-analysis of the deposited data

Results flagged for a closer look

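Hoxb2 in endothelium had log2 ratios of TNF+ over TNF- of opposite sign in the tissues, 1.05 in synovium and -1.37 in lung, which differ by 2.42. It was picked out because the intervals of both ratios lie on opposite sides of 0, and the difference itself was not tested. The lung value rests on 6 UMIs in TNF+ and 142 in TNF- mice.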

How the results depend on the processing

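No paired analysis was possible because each group was 1 library and no test was made. No called value of the comparisons rerun here changed sign, and the causes of the moves below were not tested. The share of fibroblast Hox UMIs from groups 9 to 13 became, with groups 10 to 13 only, 0% in TNF- lung, 31.7% in TNF- synovium and 33.3% in TNF+ synovium. With cells thinned to 1000 UMIs it was 0% in TNF- lung and 46.5% in TNF- synovium, and with cells weighted equally 46.2% in TNF+ synovium. Without clusters made up mostly of 1 library it was 53.9% and 64.4% in TNF- and TNF+ synovium. That setting left only the tendon cluster (303 and 73 cells), so it describes those cells and not the whole class. Fibroblast members higher and lower in synovium numbered 4 and 6 in the TNF- pair after thinning, which leaves fewer UMIs. In the TNF+ pair they were 0 and 0 after thinning, 1 and 0 with at least 50 UMIs, and 7 were higher with no filter on cells. The summed Hox log2 ratio of TNF+ over TNF- in synovium was -0.80 in fibroblasts and -0.12 in endothelium with no filter on cells, -0.84 in fibroblasts with clusters of mixed leading genes counted (chosen after seeing the data), and -0.95 after thinning and -0.30 under median-of-ratios scaling in mural cells. In lung endothelium it was -1.38 with the lymphocyte level subtracted as free RNA, -1.56 with cells weighted equally and -1.40 after thinning. With each library clustered by itself it was -0.85, but the class then held 433 TNF- cells in place of 2097 and 424 TNF+ cells in place of 392. Of 62 such ratios 61 kept their sign, and of 234 log2 ratios of single members 232 did. Lung mural cells after thinning, under the stricter filter and without clusters of 1 library, and lung endothelium without such clusters, were not run because fewer than 50 cells were left in a library. Depth limits the TNF+ lung values, where fibroblast, mural and endothelial cells had medians of 986.5, 642 and 774 UMIs.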
